A study of Mus musculus with 75 samples.

Results

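Genes that encode Wnt ligands, their receptors, secreted antagonists and close modulators were followed in the mouse BLEO-IPF model, in which bleomycin (BLEO), a DNA-damaging drug, is instilled into the trachea and lung injury is followed by fibrosis. No measured value entered the rule that chose the genes, but members and lists were chosen with earlier results of these data known. The rule took 48 protein-coding genes by their Ensembl 96 symbols out of the 55536 genes in the count table. These were 19 Wnt ligands, 12 receptors (10 Frizzled genes, *Lrp5* and *Lrp6*), 10 secreted antagonists (4 *Sfrp* genes, 4 *Dkk* genes, *Frzb* and *Wif1*), 5 genes of the R-spondin branch (*Rspo1*, *Rspo2*, *Rspo3*, *Lgr5* and *Lgr6*), the ligand-modifying enzyme *Porcn* and the feedback gene *Axin2*. RNA came from the inferior lobe of 75 male C57BL/6JRj mice, 1 library for each mouse, with 10 controls (CTRL) and 65 BLEO-IPF mice killed after a single BLEO instillation, of which 10 were taken on day 7, 7 on day 42 and 12 on each of days 14, 21, 28 and 35. The mice were 12 to 14 weeks old when BLEO was instilled, so mice of later days were older when killed. The study's methods do not state on which day the CTRL mice were killed. All mice were of this inbred strain, and no transgene or second agent was named for any group. The sample labels call the controls Saline, and so do the study's figure legends, whereas the protocol in the labels and the study's methods call them untreated. BLEO-IPF mice entered the study only if they had lost 5 to 17% of their body weight on day 6, and mice outside this range were not randomized. The lungs had been lavaged before the lobe was taken.

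Wnt ligands are secreted, lipid-modified proteins that bind Frizzled receptors and the coreceptors Lrp5 and Lrp6 on the receiving cell. In the canonical branch, binding keeps β-catenin from being degraded, and β-catenin with TCF/LEF factors then turns on target genes, among them *Axin2*, which encodes a brake of the same pathway. Secreted frizzled-related proteins, *Frzb* and *Wif1* bind the ligands outside the cell, Dickkopf proteins such as Dkk1 bind Lrp5 and Lrp6, and R-spondins act through Lgr receptors to keep Frizzled receptors on the cell surface. In the adult lung, *Wnt2* is known from mesenchymal cells, *Wnt7b* from epithelium, and *Axin2* marks cells that receive a Wnt signal, including part of the alveolar type 2 (AT2) cells.

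Libraries held 9240291 to 14665247 counts, and levels are given as CPM, the counts of a gene per 1000000 counts of the library after scaling between libraries. As labelled lung tissue, all CTRL mice carried markers of alveolar type 1, AT2, club and endothelial cells. The library of BLEO-IPF day 28 mouse 10 stood apart. Its skeletal muscle markers (*Acta1*, *Ckm* and *Myh4*) summed to 838 CPM, against at most 13.3 CPM in any other mouse, and its cardiac muscle markers summed to 1206.5 CPM, against at most 626 CPM. Its B cell markers reached 221 CPM, against at most 145 CPM elsewhere. The same library had the highest count of *Sfrp5*, *Wnt9b*, *Wnt16* and *Fzd9* and the highest level of *Wnt2b*, *Rspo1* and *Sfrp4*. The number of genes called on day 28 and the day 28 test of *Wnt2b* are therefore given with and without it. Since whole tissue was sequenced, fewer cells of a type and less RNA per cell cannot be told apart.

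The largest increases on day 14 were those of the antagonists *Frzb*, *Sfrp1* and *Dkk2* and the ligand *Wnt10a*, with log2 fold changes of 5.03, 3.36, 3.25 and 4.69. *Sfrp1*, *Frzb*, *Dkk2* and the ligand *Wnt7b* were upregulated on all 6 days, whereas *Wnt2*, *Fzd4*, *Lrp6* and *Axin2* were downregulated on all 6 days. Of the 48 genes, 37 passed the filter on low counts and were tested, and 33 of these changed on at least 1 day, where 75.6% of all 16221 genes tested did. Of all genes, 13.6% were called on all 6 days, 8.33% being higher and 5.31% lower on each of them, beside 8, 4 and 4 of the 37 Wnt genes. Of the 33 genes, 15 were only ever upregulated, 15 only ever downregulated, and 3 (*Fzd6*, *Wnt9a* and *Wnt11*) were called in both directions on different days, against 0.647% of all genes. The downward calls of *Wnt9a* and *Wnt11*, both on day 42, were lost when the filter on low counts was dropped (adjusted p = 0.115 and 0.111, edgeR). A gene was called at an adjusted p under 0.05 in edgeR's quasi-likelihood test with Benjamini-Hochberg adjustment over all genes tested. The 6 comparisons with CTRL share the same 10 CTRL mice.

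The number of Wnt genes called was highest on day 14. On day 7, 22 of 37 genes were called, 10 upregulated and 12 downregulated, where 45.8% of all genes were called (24.8% higher, 21% lower). On day 14 it was 32 of 37, 17 upregulated and 15 downregulated, against 62.4% of all genes (32.4% higher, 29.9% lower). By day 21 the number was 21 (11 upregulated, 10 downregulated), against 54.2% (28.3% higher, 25.8% lower). On day 28 it was 20 (12 upregulated, 8 downregulated), against 43.3% (24.1% higher, 19.2% lower), or 21 without day 28 mouse 10. Day 35 had 19 called genes (9 upregulated, 10 downregulated), against 29.9% (16.9% higher, 13.1% lower), and day 42 had 15 (6 upregulated, 9 downregulated), against 24.7% (13.7% higher, 11% lower). Genes for which no BLEO-IPF mouse overlapped with any CTRL mouse numbered 8 on day 7 and on day 14, where 11.2% and 15.6% of all genes did so. Days 21, 28, 35 and 42 had 10, 3, 8 and 6 such Wnt genes of 37, where 11.7%, 3.44%, 3.77% and 7.58% of all genes were without overlap. The median log2 fold change of the 37 genes lay between -0.08 on day 7 and 0.07 on day 28, beside medians of all genes between -0.0024 and 0.018. The genes thus moved in both directions on each day. By role, the day 14 median log2 fold change was 1.08 for the 7 antagonists tested, 0.25 for the 13 ligands, -0.22 for the 10 receptors and -0.42 for the 5 genes of the R-spondin branch.

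**Figure D1:**
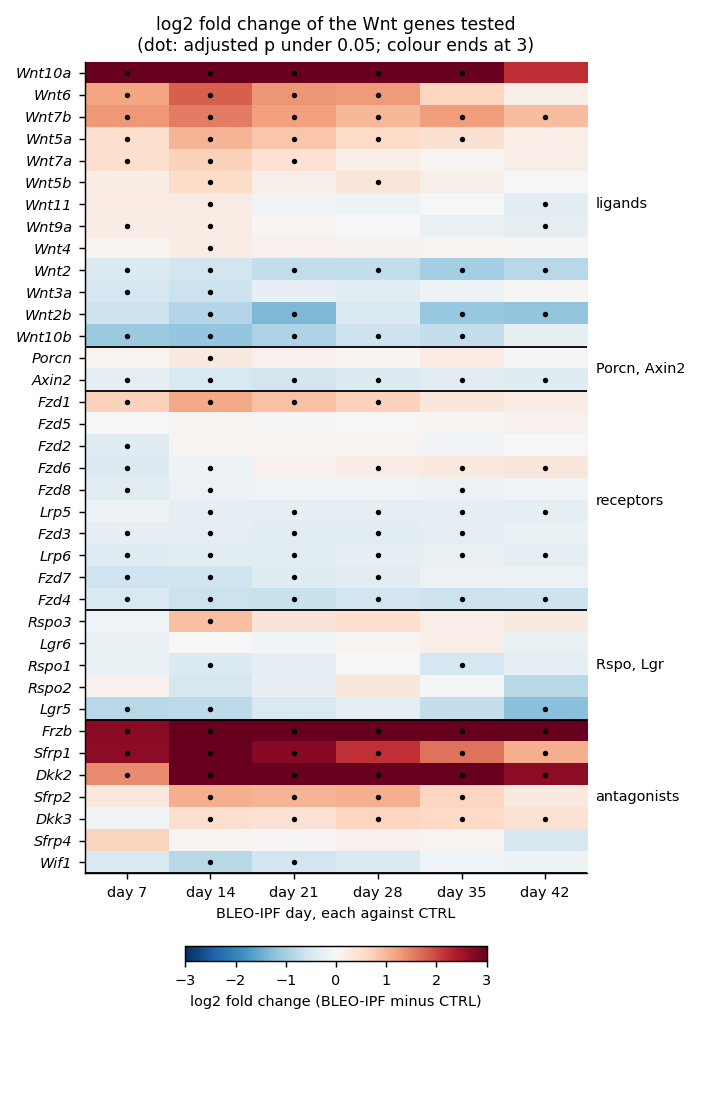
Rows are the 37 Wnt genes that passed the filter, grouped by role and ordered by day 14, and columns are the BLEO-IPF days. Colour gives the log2 fold change against CTRL (red higher, blue lower, colour ends at 3) and a dot marks an adjusted p under 0.05: *Frzb*, *Sfrp1*, *Dkk2* and *Wnt7b* have 6 red dots each, and *Wnt2*, *Fzd4*, *Lrp6* and *Axin2* have 6 blue dots each.

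Promoter sequences are shown for an antagonist and a ligand that rose, *Dkk2* and *Wnt6*, and for a feedback gene and a ligand that fell, *Axin2* and *Wnt10b*, so that the DNA just upstream of genes that moved in opposite directions can be compared. RefSeq windows matched 30 of the 48 genes, and in 14 of these the RefSeq start is the start of the gene in the annotation used here. Each sequence is the 250 bases before that start in GRCm38.p6, 5′ to 3′ on the strand of the gene. They lie at chr3:132085042-132085291 (plus strand, *Dkk2*), chr1:74771642-74771891 (plus, *Wnt6*), chr11:108920099-108920348 (plus, *Axin2*) and chr15:98778151-98778400 (minus, *Wnt10b*). Capitals mark a TATA word (TATAAA on the strand of the gene) or a GC box (GGGCGG on either strand).
Dkk2: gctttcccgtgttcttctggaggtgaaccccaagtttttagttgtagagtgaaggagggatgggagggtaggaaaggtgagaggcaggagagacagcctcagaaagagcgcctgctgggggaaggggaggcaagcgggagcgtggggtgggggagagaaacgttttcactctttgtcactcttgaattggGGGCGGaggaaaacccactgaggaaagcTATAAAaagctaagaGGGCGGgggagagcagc
Wnt6: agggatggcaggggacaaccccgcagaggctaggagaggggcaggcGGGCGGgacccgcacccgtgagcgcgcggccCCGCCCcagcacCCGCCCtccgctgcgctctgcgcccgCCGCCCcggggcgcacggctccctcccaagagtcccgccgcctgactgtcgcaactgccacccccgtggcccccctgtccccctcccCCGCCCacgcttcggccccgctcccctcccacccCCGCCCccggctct
Axin2: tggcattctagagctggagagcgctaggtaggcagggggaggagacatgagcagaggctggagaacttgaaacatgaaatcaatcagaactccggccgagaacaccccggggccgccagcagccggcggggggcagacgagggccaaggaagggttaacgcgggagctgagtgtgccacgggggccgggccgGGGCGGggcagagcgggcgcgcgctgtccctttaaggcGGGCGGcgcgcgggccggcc
Wnt10b: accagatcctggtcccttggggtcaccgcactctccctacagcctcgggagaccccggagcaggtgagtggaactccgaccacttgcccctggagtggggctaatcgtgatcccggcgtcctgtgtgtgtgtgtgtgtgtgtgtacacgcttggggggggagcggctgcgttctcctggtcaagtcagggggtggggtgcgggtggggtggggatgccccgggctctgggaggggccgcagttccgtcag
The *Dkk2* window held 1 TATA word and 2 GC boxes, that of *Wnt6* 6 GC boxes, that of *Axin2* 2 GC boxes and that of *Wnt10b* neither. No match overlapped another. The words that TCF/LEF factors can bind were searched as CTTTGAA together with CTTTGAT, and as CTTTGTA together with CTTTGTT. None of them was in the 4 windows on either strand, nor was the AP-1 word TGANTCA. Over the 30 Wnt genes with a window, taking the window nearest to the annotated start, 3 held a TCF/LEF word, 1 an AP-1 word, 4 a TATA word and 23 a GC box. Of all 27025 genes with a window of this length, 14.9% held a TCF/LEF word, 6.87% an AP-1 word, 8.12% a TATA word and 32.9% a GC box. For all genes the first window listed was taken, and they were not limited to protein-coding genes as the Wnt genes were. The 2 sets are therefore not alike, and their shares were not tested against each other.

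Among the antagonists, 5 of the 7 tested rose on day 14 and 1 fell, where 32.4% of all genes were higher and 29.9% lower. On day 42, 4 still exceeded CTRL, where 13.7% of all genes were higher. *Sfrp1*, a soluble Frizzled-like protein that binds Wnt ligands (chromosome 8, 23411502 to 23449632, GRCm38), had a lowest, median and highest level of 20.9, 27.1 and 29.99 CPM in CTRL, 109, 163 and 236 CPM on day 7 and 127, 258 and 439 CPM on day 14. The same values were 72.9, 137 and 344 CPM on day 21, 37.6, 86.5 and 305 CPM on day 28, 42, 79.6 and 147 CPM on day 35 and 30.2, 48.5 and 79.7 CPM on day 42. Every BLEO-IPF mouse of every day was above the highest CTRL mouse. Fitted across all mice, the log2 fold change of *Sfrp1* was 3.36 ± 0.32 (SE, adjusted p = 2.56e-14) on day 14, a 10.3-fold increase, and 1.09 ± 0.33 (SE, adjusted p = 0.0114) on day 42.

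*Frzb* (chromosome 2, 80411970 to 80447625), which encodes another Wnt-binding protein of the same family, was close to the limit of detection in CTRL, with 0 to 6 counts per mouse. Its levels were 0, 0.188 and 0.571 CPM in CTRL, 0.306, 1.66 and 2.49 CPM on day 7 and 1.97, 8.12 and 13 CPM on day 14. Later they were 1.63, 5.4 and 17.9 CPM on day 21, 0.56, 3.37 and 17.1 CPM on day 28, 0.504, 2.22 and 9.03 CPM on day 35 and 0.6005, 1.88 and 3.96 CPM on day 42. All mice of days 14, 21 and 42 were above all CTRL mice, and on each of days 7, 28 and 35 a single mouse was not. As a log2 fold change against CTRL, the difference was 5.03 ± 0.62 (SE, adjusted p = 1.76e-10) on day 14 and 3.01 ± 0.72 (SE, adjusted p = 0.00126) on day 42. From the pooled counts, 1043 on day 14 and 25 in CTRL, the ratio per library total was 33.5 (95% exact interval 22.6 to 52.1, counting error only).

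*Dkk2* (chromosome 3, 132085292 to 132180304), which encodes a ligand of Lrp5 and Lrp6 that can block or weakly activate the pathway, had its largest log2 fold change on day 28. Lowest, median and highest levels were 0.359, 0.667 and 1.19 CPM in CTRL, 0.96, 1.81 and 3.88 CPM on day 7, 3.77, 6.53 and 11.4 CPM on day 14 and 2.67, 7.46 and 23.6 CPM on day 21. They were 1.73, 7.31 and 28.8 CPM on day 28, 1.5, 3.9 and 27.2 CPM on day 35 and 1.37, 3.75 and 14 CPM on day 42. From day 14 on all BLEO-IPF mice exceeded all CTRL mice, and from day 21 on the mice of a day ranged from slightly above CTRL to far above it. Against CTRL the log2 fold change of *Dkk2* was 1.41 ± 0.60 (SE, adjusted p = 0.0488) on day 7, 3.25 ± 0.55 (SE, adjusted p = 6.55e-07) on day 14, 3.86 ± 0.55 (SE, adjusted p = 5.64e-08) on day 28 and 2.68 ± 0.60 (SE, adjusted p = 0.000625) on day 42. The call on day 7 was lost when the filter on low counts was dropped (adjusted p = 0.0885, edgeR) and in 17 of the 20 fits that each left out 1 of the mice compared.

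**Figure D2:**
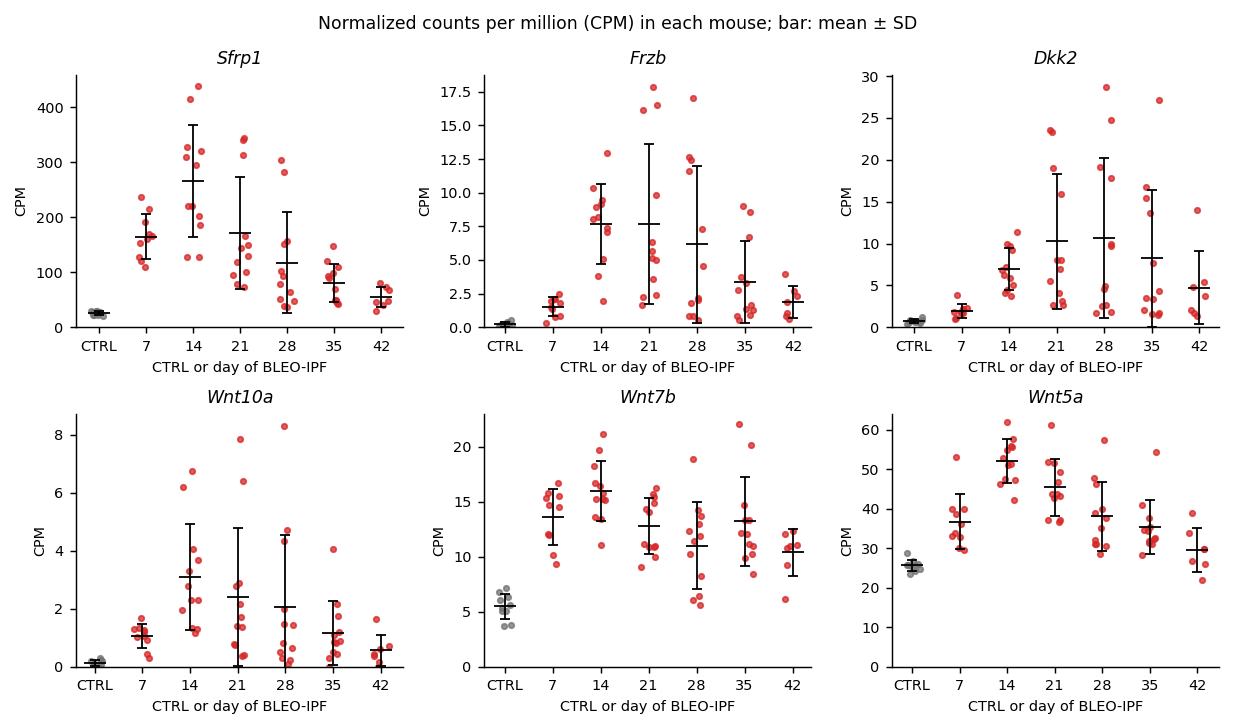
Each point is the level of a gene in 1 mouse in CPM on a linear axis from 0, for CTRL (grey) and the BLEO-IPF days (red), with the mean and SD as bars (the part of a bar below 0 is not drawn). *Sfrp1* and *Wnt5a* are highest on day 14, whereas *Dkk2* has its highest mouse, 28.8 CPM, on day 28, and the points spread widely from day 21 on.

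*Sfrp2*, of the same family as *Sfrp1*, moved less. Its levels were 4.31, 6.56 and 8.75 CPM in CTRL, 7.47, 13.6 and 22.3 CPM on day 14, 6.23, 11.4 and 29.2 CPM on day 28 and 4.34, 8.59 and 10.2 CPM on day 42. Lowest, median and highest values of *Sfrp2* otherwise were 3.26, 8.47 and 11.7 CPM on day 7, 7.72, 12.2 and 24.8 CPM on day 21 and 5.96, 8.26 and 25.9 CPM on day 35. On day 14, 11 of 12 mice were above all CTRL mice, and by day 42 the groups overlapped. Its fitted log2 fold change was 1.08 ± 0.22 (SE, adjusted p = 2.24e-05) on day 14 and 1.09 ± 0.22 (SE, adjusted p = 5.79e-05) on day 28, and the values of 0.33 ± 0.23 (SE, adjusted p = 0.247) on day 7 and 0.29 ± 0.25 (SE, adjusted p = 0.427) on day 42 did not pass the test. The day 35 log2 fold change, 0.64 ± 0.22 (SE, adjusted p = 0.0223), depended on day 35 mouse 7, without which the value was 0.42 (adjusted p = 0.128, edgeR).

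*Dkk3*, a divergent member of the Dickkopf family, had levels of 106, 112 and 124 CPM in CTRL and 123, 161 and 294 CPM on day 28. It was upregulated from day 14 to day 42, with log2 fold changes between 0.42 and 0.64. All mice of days 21, 35 and 42 exceeded all CTRL mice, yet on day 7 the log2 fold change was -0.08 ± 0.10 (SE, adjusted p = 0.524).

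*Wif1*, which binds Wnt ligands through a domain of its own, was the antagonist that fell. Its levels were 3.75, 5.16 and 6.49 CPM in CTRL, 1.26, 2.55 and 4.51 CPM on day 14 and 2.99, 4.44 and 5.72 CPM on day 42. In the other groups *Wif1* had 2.33, 3.63 and 5.93 CPM on day 7, 1.69, 3.39 and 5.04 CPM on day 21, 1.41, 3.61 and 6.56 CPM on day 28 and 3.64, 4.47 and 8.36 CPM on day 35. On day 14, 9 of 12 mice were below all CTRL mice. In the test, the log2 fold change was -0.84 ± 0.19 (SE, adjusted p = 0.00014) on day 14 and -0.58 ± 0.19 (SE, adjusted p = 0.00851) on day 21, and the values of -0.46 on day 7 and -0.44 on day 28 missed the threshold (adjusted p = 0.0516 and 0.0538, edgeR). *Sfrp4* was called on no day, with log2 fold changes from -0.48 to 0.67. *Dkk1*, *Dkk4* and *Sfrp5* did not pass the filter.

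All 13 ligands tested were called on day 14, 9 upregulated and 4 downregulated, where 32.4% of all genes were higher and 29.9% lower. Among them, the calls of *Wnt4* and *Wnt11* were lost under DESeq2, another test on the counts (adjusted p = 0.0668 and 0.0564). The largest fold change belonged to *Wnt10a* (chromosome 1, 74791516 to 74804179), a canonical ligand with 0 to 3 counts per CTRL mouse. Its levels were 0, 0.0956 and 0.278 CPM in CTRL, 0.288, 1.13 and 1.66 CPM on day 7, 1.15, 2.54 and 6.76 CPM on day 14 and 0.363, 1.56 and 7.87 CPM on day 21. They were 0.0933, 1.11 and 8.29 CPM on day 28, 0, 0.848 and 4.06 CPM on day 35 and 0, 0.433 and 1.64 CPM on day 42. No mouse of days 7, 14 and 21 overlapped with CTRL, and on day 42, 5 of 7 mice were above all CTRL mice. The log2 fold change was 4.69 ± 0.69 (SE, adjusted p = 2.10e-08) on day 14 and 3.29 ± 0.73 (SE, adjusted p = 0.000291) on day 35, and the day 42 value, 2.22 ± 0.87 (SE, adjusted p = 0.0523), did not pass edgeR's test. The pooled ratio to CTRL was 28 on day 14 (95% exact interval 15.9 to 54.6) and 5.01 on day 42 (2.59 to 10.5), which covers counting error only and rests on 12 counts in CTRL. *Wnt6*, its neighbour on chromosome 1 (74771892 to 74785322), was also low, at 0.0899, 0.368 and 0.761 CPM in CTRL and 0.277, 1.15 and 3.78 CPM on day 14. The remaining levels of *Wnt6* were 0.352, 0.848 and 1.13 CPM on day 7, 0.245, 0.825 and 1.78 CPM on day 21, 0.437, 0.891 and 2.1 CPM on day 28, 0.336, 0.547 and 1.18 CPM on day 35 and 0.0937, 0.395 and 0.779 CPM on day 42. It was upregulated from day 7 to day 28, with a log2 fold change of 1.79 ± 0.36 (SE, adjusted p = 1.91e-05) on day 14, where 7 of 12 mice were above all CTRL mice.

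*Wnt7b* (chromosome 15, 85535437 to 85582473), an epithelial ligand in the developing lung, kept its increase over the whole period. Its levels were 3.71, 5.45 and 7.14 CPM in CTRL, 9.31, 14.6 and 16.7 CPM on day 7, 11.1, 15.5 and 21.2 CPM on day 14 and 9.09, 12.6 and 16.2 CPM on day 21. Thereafter they were 5.58, 11.6 and 18.9 CPM on day 28, 8.45, 12.1 and 22.1 CPM on day 35 and 6.18, 11 and 12.3 CPM on day 42. All mice of days 7, 14, 21 and 35 were above all CTRL mice, as were 6 of 7 mice on day 42. Fitted across all mice, the log2 fold change was 1.54 ± 0.16 (SE, adjusted p = 6.66e-13) on day 14 and 0.92 ± 0.18 (SE, adjusted p = 9.00e-05) on day 42. The antisense gene *AU022754* shares exon bases with *Wnt7b* and had 7.87% of its counts, and whether counting used strand is not given in the sources used here.

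*Wnt5a*, the main ligand of the β-catenin-independent branch (chromosome 14, 28504750 to 28527448), rose with a narrow spread. Its levels were 23.5, 25.8 and 28.8 CPM in CTRL, 29.7, 35.1 and 53.2 CPM on day 7, 42.3, 52.1 and 62.1 CPM on day 14 and 36.7, 43.8 and 61.2 CPM on day 21. They were 28.6, 36.5 and 57.5 CPM on day 28, 28.2, 33.5 and 54.4 CPM on day 35 and 22, 29.9 and 39 CPM on day 42. On days 7, 14 and 21 no BLEO-IPF mouse overlapped with CTRL. As a log2 fold change against CTRL, the difference was 1.02 ± 0.10 (SE, adjusted p = 1.49e-13) on day 14, and 0.20 ± 0.11 (SE, adjusted p = 0.191) on day 42, which did not pass the test. Its paralog *Wnt5b* was called on day 14, with a log2 fold change of 0.54 ± 0.14 (SE, adjusted p = 0.000636), and on day 28, where the value went from 0.36 to 0.22 without day 28 mouse 5 (adjusted p = 0.174, edgeR). *Wnt7a* was upregulated on days 7, 14 and 21, with a log2 fold change of 0.69 ± 0.15 (SE, adjusted p = 4.84e-05) on day 14. *Wnt4*, *Wnt9a* and *Wnt11* were upregulated on day 14 with log2 fold changes of 0.22 to 0.25, and *Wnt9a* and *Wnt11* were downregulated on day 42 with -0.26 and -0.33. These 5 calls had adjusted p from 0.0178 to 0.0483, and those of *Wnt4* and *Wnt11* on day 14 were lost under DESeq2 and under both other library scalings.

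Ligands that fell included *Wnt2* (chromosome 6, 17988940 to 18030585), which is known from lung mesenchyme. Its levels were 12.7, 16.7 and 26.2 CPM in CTRL, 9.33, 13 and 19.1 CPM on day 7, 7.78, 11.8 and 19.98 CPM on day 14 and 6.74, 11.1 and 15.2 CPM on day 21. They were 8.09, 9.85 and 14.6 CPM on day 28, 3.85, 9.1 and 12.3 CPM on day 35 and 5.16, 8.89 and 19.3 CPM on day 42. All 12 mice of day 35 were below all CTRL mice, as were 6 of 7 on day 42, while on day 7 most mice overlapped with CTRL. The day 7 call was lost without CTRL mouse 2 or without day 7 mouse 5 (adjusted p = 0.0677 and 0.0524, edgeR), and without the filter. Against CTRL the log2 fold change went from -0.44 ± 0.16 (SE, adjusted p = 0.0241) on day 7 to -1.02 ± 0.16 (SE, adjusted p = 7.75e-07) on day 35 and -0.83 ± 0.19 (SE, adjusted p = 0.000573) on day 42, and day 42 did not differ from day 14 in the test (-0.28 ± 0.18, adjusted p = 0.218). Without day 42 mouse 4, the highest of its group, that difference was -0.52 (adjusted p = 0.0221, edgeR).

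*Wnt2b*, its paralog, depended on the library with muscle markers. Levels were 3.42, 4.55 and 6.34 CPM in CTRL, 1.11, 2.21 and 6.46 CPM on day 14, 1.12, 1.68 and 3.09 CPM on day 21 and 1.25, 2.24 and 3.17 CPM on day 42. On day 28 they were 0.599, 2.37 and 16.5 CPM, the highest being mouse 10. Lowest, median and highest values of *Wnt2b* otherwise were 2.11, 3.14 and 3.998 CPM on day 7 and 0.907, 2.29 and 3.33 CPM on day 35. All mice of days 21, 35 and 42 were below all CTRL mice. Its fitted log2 fold change was -1.34 ± 0.29 (SE, adjusted p = 7.12e-05) on day 21 and -1.18 ± 0.34 (SE, adjusted p = 0.00779) on day 42. On day 28 it was -0.44 ± 0.28 (SE, adjusted p = 0.201) with all 12 mice and -1.01 (adjusted p = 0.000264, edgeR) without mouse 10. With all mice, *Wnt2b* was called on 4 of 6 days. The other comparisons with CTRL were not rerun without that library. On day 7 the log2 fold change of -0.63 was not called (adjusted p = 0.0735, edgeR). With the compared groups fitted alone, which leaves that library out, the day 7 value passed (-0.63, adjusted p = 0.000651, edgeR).

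*Wnt10b*, a canonical ligand on chromosome 15 (98770712 to 98778150), had levels of 14.6, 18.9 and 27.4 CPM in CTRL, 6.28, 8.88 and 14.3 CPM on day 7, 5.04, 8.42 and 14.4 CPM on day 14 and 12, 15.1 and 25.3 CPM on day 42. In the other groups *Wnt10b* had 5.87, 12.3 and 14.7 CPM on day 21, 6.49, 12.1 and 22.2 CPM on day 28 and 6.36, 12.7 and 18.4 CPM on day 35. Mice of days 7 and 14 were all below CTRL. Its log2 fold change was -1.16 ± 0.19 (SE, adjusted p = 2.82e-07) on day 14 and -0.28 ± 0.22 (SE, adjusted p = 0.351) on day 42, the latter not called. *Wnt3a*, the ligand most used to activate the canonical pathway in culture, was 21, 26.6 and 31.4 CPM in CTRL, 12.1, 18.4 and 29.3 CPM on day 7, 4.03, 17.4 and 27.7 CPM on day 14 and 22.9, 25.8 and 31.9 CPM on day 42. The remaining levels of *Wnt3a* were 10.2, 24.5 and 28.3 CPM on day 21, 6.99, 23 and 27.3 CPM on day 28 and 15.7, 24.4 and 29.9 CPM on day 35. The day 14 mice ranged from far below CTRL to within it. The log2 fold change was called on day 7, -0.50 ± 0.20 (SE, adjusted p = 0.0392), and day 14, -0.64 ± 0.19 (SE, adjusted p = 0.00313), and the later values lay between -0.31 and 0.03. The other 6 ligands did not pass the filter.

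**Figure D3:**
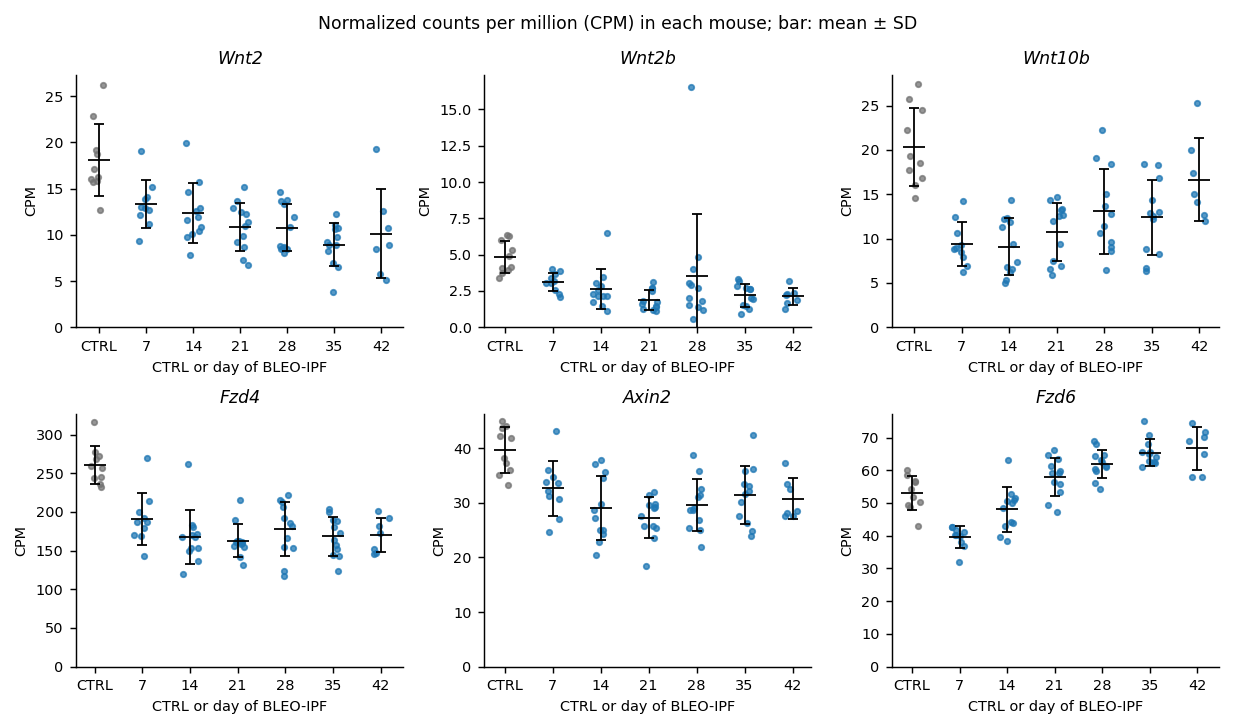
Each point is the level of a gene in 1 mouse in CPM on a linear axis from 0, for CTRL (grey) and the BLEO-IPF days (blue), with the mean and SD as bars. *Wnt2*, *Fzd4* and *Axin2* stay low to day 42, *Wnt10b* is lowest on days 7 and 14, *Wnt2b* has a day 28 mouse at 16.5 CPM, and *Fzd6* is below CTRL on day 7 and above most CTRL mice from day 28 on.

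Of the 10 receptors tested, 7 were downregulated and 1 was upregulated on each of days 7 and 14. On these days 21% and 29.9% of all genes were lower, and 24.8% and 32.4% higher. The number downregulated was 5 on each of days 21, 28 and 35 and 3 on day 42, when 6 were not called. Of all genes, 25.8, 19.2, 13.1 and 11% were lower on days 21, 28, 35 and 42. *Fzd4* (chromosome 7, 89404355 to 89413134), a receptor of Wnt ligands and of norrin with a known part in vessel growth, had levels of 233, 258 and 317 CPM in CTRL, 119.8, 167 and 262 CPM on day 14, 124, 168 and 204 CPM on day 35 and 145, 173 and 201 CPM on day 42. Lowest, median and highest values of *Fzd4* otherwise were 144, 187 and 269.9 CPM on day 7, 131, 161 and 216 CPM on day 21 and 117, 184 and 222 CPM on day 28. Every mouse of days 21, 28, 35 and 42 was below every CTRL mouse. In the test, the log2 fold change was -0.64 ± 0.10 (SE, adjusted p = 6.52e-08) on day 14 and -0.62 ± 0.11 (SE, adjusted p = 3.84e-05) on day 42, and these days did not differ in the test (0.02 ± 0.11, adjusted p = 0.9).

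*Fzd7* had levels of 60.9, 69 and 78.2 CPM in CTRL, 39.2, 44.8 and 52.9 CPM on day 7, 29, 49.5 and 61.6 CPM on day 14 and 59.5, 60.3 and 66.8 CPM on day 42. In the other groups *Fzd7* had 39.1, 56.4 and 64.8 CPM on day 21, 43.3, 55.4 and 65.9 CPM on day 28 and 46.6, 63.5 and 70.5 CPM on day 35. It was downregulated up to day 28, with a log2 fold change of -0.60 ± 0.09 (SE, adjusted p = 1.98e-08) on day 14. The coreceptor *Lrp6* was lower on all 6 days, at 180.5, 210.3 and 247 CPM in CTRL, 107, 166 and 194 CPM on day 7 and 155, 166 and 198 CPM on day 42, with log2 fold changes from -0.39 ± 0.08 (SE, adjusted p = 4.07e-05) on day 7 to -0.30 ± 0.09 (SE, adjusted p = 0.00718) on day 42. The remaining levels of *Lrp6* were 129, 173 and 211 CPM on day 14, 139.6, 168 and 209 CPM on day 21, 123, 177 and 218 CPM on day 28 and 151, 184 and 207 CPM on day 35. Its day 35 call was lost without CTRL mouse 4 (adjusted p = 0.0558, edgeR). Its partner *Lrp5* was downregulated from day 14 on, with log2 fold changes from -0.30 to -0.26. *Fzd3* was downregulated on 5 days and *Fzd8* on 3, with log2 fold changes from -0.35 to -0.17 on the days called, and *Fzd2* on day 7 alone, with -0.36 ± 0.09 (SE, adjusted p = 0.000481). *Fzd5* was called on no day, with log2 fold changes from 0.01 to 0.12.

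Against this, *Fzd1* (chromosome 5, 4753839 to 4758035) rose. Its levels were 71.8, 83.9 and 92.4 CPM in CTRL, 96.3, 134 and 172 CPM on day 7, 123, 179 and 262 CPM on day 14, 86.6, 106 and 243 CPM on day 28 and 88.8, 95.7 and 113 CPM on day 42. Lowest, median and highest values of *Fzd1* otherwise were 92.4, 130.5 and 262 CPM on day 21 and 82.5, 99.96 and 165 CPM on day 35. No mouse of days 7 and 14 overlapped with CTRL. The log2 fold change was 1.14 ± 0.16 (SE, adjusted p = 4.52e-09) on day 14, and the values on day 35, 0.35 ± 0.15 (SE, adjusted p = 0.0798), and day 42, 0.23 ± 0.18 (SE, adjusted p = 0.362), were not called, although 6 of the 7 mice of day 42 were above all CTRL mice. With the compared groups fitted alone, both days passed the test (adjusted p = 0.00259 and 0.00213, edgeR). *Fzd6*, which signals mainly in planar cell polarity, changed its direction. It was 43.1, 53 and 60.05 CPM in CTRL, 31.8, 40.2 and 42.8 CPM on day 7, 54.2, 61.9 and 68.9 CPM on day 28 and 58, 69 and 74.6 CPM on day 42. In the other groups *Fzd6* had 38.3, 49.2 and 63.2 CPM on day 14, 47.3, 59.2 and 66.3 CPM on day 21 and 61, 64.5 and 75.1 CPM on day 35. All day 7 mice were below CTRL, and all 12 mice of day 35 were above it. Fitted across all mice, the log2 fold change was -0.42 ± 0.06 (SE, adjusted p = 1.32e-07) on day 7, 0.23 ± 0.06 (SE, adjusted p = 0.00155) on day 28 and 0.33 ± 0.07 (SE, adjusted p = 0.000206) on day 42.

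In the R-spondin branch few calls were made. *Lgr5*, an R-spondin receptor known as a stem cell marker in other tissues, was low at 0.761, 1.9 and 3.55 CPM in CTRL, 0.487, 1.01 and 1.95 CPM on day 14 and 0.345, 0.595 and 1.45 CPM on day 42. The remaining levels of *Lgr5* were 0.352, 0.906 and 1.85 CPM on day 7, 0.182, 1.08 and 3.09 CPM on day 21, 0.194, 1.3 and 3.81 CPM on day 28 and 0.582, 1.1 and 1.56 CPM on day 35. The groups overlapped on every day. Log2 fold changes passed the test on day 7, -0.84 ± 0.32 (SE, adjusted p = 0.025), day 14, -0.78 ± 0.30 (SE, adjusted p = 0.0216), and day 42, -1.25 ± 0.37 (SE, adjusted p = 0.00947). The day 7 call was lost without CTRL mouse 3, without day 7 mouse 5 or without the filter (adjusted p = 0.0526, edgeR), and the day 14 call without CTRL mouse 3. *Rspo3* was 1.17, 1.93 and 2.71 CPM in CTRL and 1.57, 2.93 and 7.39 CPM on day 14, when 6 of 12 mice were above all CTRL mice and its log2 fold change was 0.91 ± 0.23 (SE, adjusted p = 0.000487). Lowest, median and highest values of *Rspo3* otherwise were 1.2, 1.66 and 2.38 CPM on day 7, 1.002, 2.19 and 5.06 CPM on day 21, 1.03, 2.31 and 5.09 CPM on day 28, 1.6, 2.02 and 3.18 CPM on day 35 and 1.69, 2.22 and 2.86 CPM on day 42. *Rspo1* was 9.62, 14.2 and 17.2 CPM in CTRL, 7.06, 9.41 and 17.1 CPM on day 14 and 6.35, 10.3 and 12.9 CPM on day 35, and its log2 fold changes on those days were -0.42 ± 0.17 (SE, adjusted p = 0.0321) and -0.50 ± 0.18 (SE, adjusted p = 0.0241). In the other groups *Rspo1* had 7.99, 12 and 17.9 CPM on day 7, 7.56, 12.1 and 18.8 CPM on day 21, 7.69, 13.3 and 28.2 CPM on day 28 and 4.63, 11 and 20.3 CPM on day 42. The highest *Rspo1* level on day 28 was that of mouse 10, and the next highest mouse of that day had 18.3 CPM. *Rspo2* and *Lgr6* were called on no day, with log2 fold changes from -0.84 to 0.33 and from -0.23 to 0.19. *Porcn*, the enzyme that attaches the lipid to Wnt ligands, was 25.9, 30.9 and 36.3 CPM in CTRL and 25.8, 35.8 and 46.9 CPM on day 14. The remaining levels of *Porcn* were 27.3, 32.2 and 38.1 CPM on day 7, 23, 32.2 and 48.6 CPM on day 21, 18.7, 33.1 and 50.7 CPM on day 28, 28.1, 38.1 and 44.3 CPM on day 35 and 25.4, 29.7 and 35 CPM on day 42. Its log2 fold change was called on day 14 alone, 0.27 ± 0.12 (SE, adjusted p = 0.0458), and that call was lost under DESeq2 (adjusted p = 0.0663).

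*Axin2* (chromosome 11, 108920349 to 108950783) is the feedback gene often read as a sign of canonical signalling. Its levels were 33.4, 40.1 and 45 CPM in CTRL, 24.7, 32.9 and 43.1 CPM on day 7, 20.5, 28 and 37.9 CPM on day 14 and 18.3, 28.3 and 31.9 CPM on day 21. They were 22, 28.9 and 38.8 CPM on day 28, 23.9, 32 and 42.5 CPM on day 35 and 27.6, 28.5 and 37.4 CPM on day 42. On day 21 no BLEO-IPF mouse overlapped with CTRL, and on the other days some did. As a log2 fold change against CTRL, the difference was -0.28 ± 0.10 (SE, adjusted p = 0.017) on day 7, -0.54 ± 0.10 (SE, adjusted p = 2.49e-06) on day 21 and -0.37 ± 0.11 (SE, adjusted p = 0.0111) on day 42.

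Other components and targets of the pathway were read from a list of 57 genes, of which 56 were found and 51 passed the filter. On day 14, 25 of these 51 were called, 12 upregulated and 13 downregulated, a share of 49% where 62.4% of all genes were called (32.4% higher, 29.9% lower). Days 7, 21, 28, 35 and 42 had 29, 32, 22, 21 and 19 calls among these genes, of which 20, 17, 13, 12 and 11 were decreases. These are shares of 56.9, 62.7, 43.1, 41.2 and 37.3%, beside 45.8, 54.2, 43.3, 29.9 and 24.7% of all genes. Of all genes, 21, 25.8, 19.2, 13.1 and 11% were lower on these days. As log2 fold changes ± SE, the largest increases on day 14 were those of *Celsr3*, a polarity cadherin (2.53 ± 0.34, adjusted p = 3.29e-09), *Ccn4*, a secreted matricellular protein (2.44 ± 0.28, adjusted p = 1.52e-11), and *Myc*, a growth-promoting transcription factor (1.99 ± 0.26, adjusted p = 1.51e-09). *Celsr3* was near 0 in CTRL, at 0.43 ± 0.196 CPM (mean ± SD, n = 10). On day 14 it was at 2.6 ± 2.7 CPM, so its SD exceeded its mean. The largest decreases were those of *Prickle1*, a polarity protein (-1.08 ± 0.17, adjusted p = 1.27e-07), *Rspo4*, an R-spondin outside the rule (-0.87 ± 0.31, adjusted p = 0.0108), and *Lef1*, a partner of β-catenin at its targets (-0.86 ± 0.17, adjusted p = 1.28e-05). Of the 14 feedback and target genes tested, 4 rose on day 14 (*Ccn4*, *Myc*, *Ccnd1* and *Cd44*) and 4 fell (*Lef1*, *Rnf43*, *Znrf3* and *Tcf7*). Both numbers were near the shares of all genes on that day, 32.4% higher and 29.9% lower. *Rnf43* and *Znrf3* encode ubiquitin ligases that remove Frizzled receptors. Which signals moved the genes that rose or those that fell was not tested. *Ctnnb1*, the gene of β-catenin, was not called on day 14 (0.06 ± 0.05, adjusted p = 0.311), and *Wls*, which carries Wnt ligands to the cell surface, was upregulated (0.27 ± 0.05, adjusted p = 1.81e-06). Of the receptor genes *Ror1*, *Ror2* and *Ryk*, chosen after their values were seen, *Ror2* (1.62 ± 0.18, adjusted p = 2.73e-12) and *Ror1* (0.82 ± 0.13, adjusted p = 1.26e-07) were upregulated on day 14, and *Ryk* was called on no day (0.09 ± 0.06, adjusted p = 0.16 on day 14).

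In all, 11 members did not pass the filter and were not tested. The most counts in a mouse were 58 for *Sfrp5* and 56 for *Wnt9b*, both in day 28 mouse 10, where the next highest mouse had 18 and 38. The others reached at most 12 (*Fzd10*), 10 (*Fzd9*), 5 (*Dkk1*), 4 (*Wnt1* and *Wnt3*), 3 (*Wnt16* and *Wnt8b*), 2 (*Wnt8a*) and 1 count (*Dkk4*). *Wnt1* had no count in any CTRL mouse and up to 4 counts in 7 of the 12 mice of day 14, and without the filter it was called on days 7, 14 and 21, and *Fzd9* on day 14. For the other 9 no difference was detectable at this depth on any day.

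Levels were compared between genes as RPKM, CPM per 1000 bases of exon. In CTRL the most abundant were the receptor *Fzd4* at 38.8 ± 3.7 RPKM (mean ± SD, n = 10) and *Dkk3* at 33.6 ± 1.64 RPKM, followed by *Fzd1* at 19.7 ± 1.53 RPKM and *Lrp5* at 19.2 ± 1.77 RPKM, which differed by less than their SD. *Lrp6* at 15.5 ± 1.34 RPKM and *Fzd7* at 15.2 ± 1.32 RPKM likewise lay within their spread. The most abundant ligands were *Wnt3a* at 9.47 ± 0.964 RPKM and *Wnt2* at 8.02 ± 1.74 RPKM, which overlapped within their SD. *Sfrp1* was at 5.91 ± 0.739 RPKM and rank 15 of 48 in CTRL, and at 60.9 ± 23.3 RPKM and rank 1 on day 14, where *Dkk3* followed at 47.4 ± 6.92 RPKM and the 2 lay within the spread of *Sfrp1*. *Wnt10a* and *Frzb*, with the largest fold changes, stayed low on day 14, at 1.25 ± 0.746 and 2.38 ± 0.921 RPKM. By day 14 *Wnt5a*, at 6.66 ± 0.709 RPKM, had passed *Wnt3a*, at 6.06 ± 2.98 RPKM, though the SD of *Wnt3a* covers the difference. With the longest transcript in place of all exons, *Fzd4* and *Dkk3* were still ranks 1 and 2 in CTRL, *Lrp6* moved from rank 5 to 3 and *Fzd1* from 3 to 5.

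**Figure D4:**
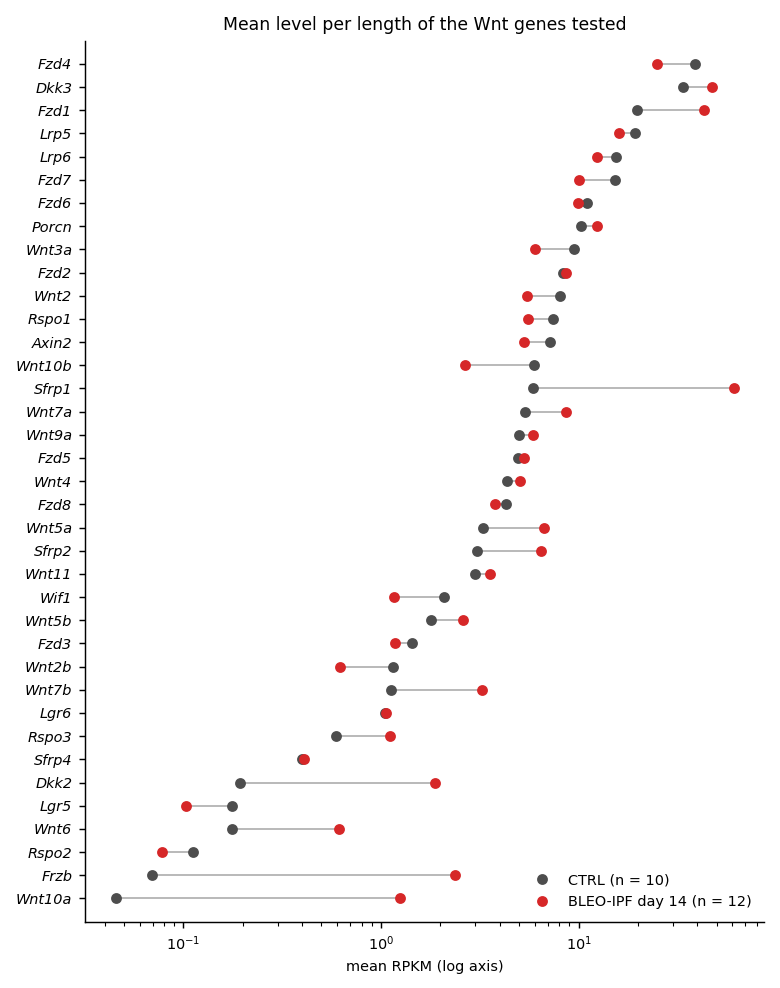
Mean RPKM on a log axis of the 37 genes tested, in CTRL (dark, n = 10) and on BLEO-IPF day 14 (red, n = 12), ordered by CTRL. *Sfrp1* moves from the middle of the order to its top, and *Frzb* and *Wnt10a* rise from the lowest levels but reach only 2.38 and 1.25 RPKM.

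Day 42 was also compared with day 14 directly. In the comparison of these days, 18 of 37 genes were called, 5 higher and 13 lower on day 42, where 34% of all genes were called (15.2% higher, 18.8% lower). In 3 of the 37, and in 3.72% of all genes, no mouse of the earlier day overlapped with the later day. The median log2 fold change was -0.30, beside -0.0066 for all genes. Of the 17 genes upregulated on day 14, 13 were lower on day 42 than on day 14, none was higher, and 5 still exceeded CTRL. Of the 15 genes downregulated on day 14, 5 were higher on day 42 than on day 14 (*Fzd6*, *Fzd7*, *Wif1*, *Wnt10b* and *Wnt3a*) and 7 were still below CTRL (*Axin2*, *Fzd4*, *Lgr5*, *Lrp5*, *Lrp6*, *Wnt2* and *Wnt2b*). The log2 fold change between these days was -2.28 ± 0.34 (SE, adjusted p = 5.01e-07) for *Sfrp1* and -0.81 ± 0.11 (SE, adjusted p = 1.06e-07) for *Wnt5a*, and for both genes and *Fzd1* all 7 mice of day 42 were below all 12 of day 14. *Dkk2*, by contrast, did not differ in the test (-0.57 ± 0.50, adjusted p = 0.39), nor did *Dkk3* (-0.05 ± 0.10, adjusted p = 0.734) or *Axin2* (0.08 ± 0.11, adjusted p = 0.582). The counts of genes chosen by their day 14 calls are a description. The share of all genes chosen in this way was not computed. The same day 14 values entered the choice and the comparison, which favours a move back towards CTRL.

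Cell type markers moved on the same days. The summed level of 4 markers of matrix-producing fibroblasts (*Cthrc1*, *Col1a1*, *Postn* and *Col3a1*) was 1271, 1504 and 1794 CPM in CTRL (lowest, median and highest mouse), 3790.4, 6083 and 10323 CPM on day 14 and 1912, 2456 and 2967 CPM on day 42, with 4 of 4 markers upregulated on day 14 and 1 on day 42. No BLEO-IPF mouse of any day overlapped with CTRL. The 5 alveolar fibroblast markers summed to 3953, 4238 and 4834 CPM in CTRL, 1383, 2176 and 2669.8 CPM on day 14 and 2230.4, 2605 and 3857 CPM on day 42, with 5 of 5 downregulated on day 14 and 4 on day 42. The 6 endothelial markers summed to 2987, 3393 and 3949 CPM in CTRL and 1630.2, 2349.5 and 3229 CPM on day 14, with 5 of 6 downregulated. AT2 markers went from 22100.5, 24244 and 26998 CPM in CTRL to 6177, 12461 and 23008 CPM on day 14, with 5 of 6 downregulated, and club cell markers from 20539, 26059.6 and 27868 CPM to 2431, 7111 and 15916 CPM, with 3 of 4 downregulated. None of these defining markers was at 0 in CTRL. Their part in the changes of *Sfrp1*, *Frzb*, *Dkk2*, *Wnt2*, *Fzd4*, *Axin2* and the other Wnt genes was not tested.

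**Figure D5:**
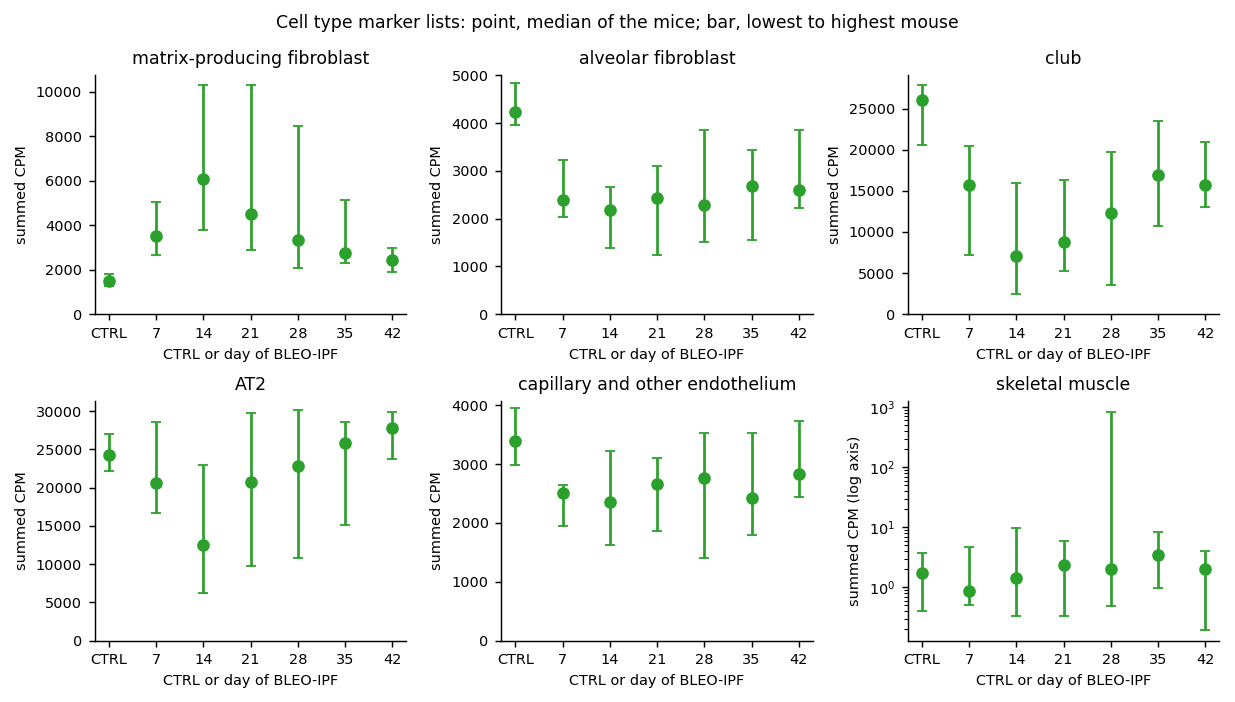
Summed CPM of the markers of 6 cell types in CTRL and on the BLEO-IPF days, with the median mouse as a point and the lowest to highest mouse as a bar. The skeletal muscle panel has a log axis, the others start at 0: matrix-producing fibroblast markers are highest and club cell markers lowest on day 14, and a day 28 mouse reaches 838 CPM for skeletal muscle.

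Some mice were the extreme of their group for many Wnt genes. On day 21, mouse 10 was the highest of its group for 12 of the 17 genes that rose on day 14. On day 28, mouse 5 was the highest for 9 of these 17 and the lowest for 11 of the 15 genes that fell on day 14. On day 42, mouse 7 was the highest for 8 of the 17, and on day 35 mouse 6 for 6. Each of these 4 mice was also the highest of its group for matrix-producing fibroblast markers, at 10322, 8456, 2967 and 5144 CPM. The mice highest for these markers on days 7 and 14 were each the highest for 4 of the 17. In CTRL mouse 5 and on day 14 mouse 3 were the highest for 5 of the 17, and on day 7 mouse 3 was the lowest for 6 of the 15, so that the day 35 number was close to those of other groups. These mice were picked out after their values were seen, and the genes of a mouse share a library.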

How the data were processed

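The deposited counts are whole reads per gene for 75 libraries of poly(A) RNA, 1 mouse each. The submitters' processing notes name STAR 2.7.0f, and the gene identifiers are those of Ensembl 96 (GRCm38). The counting program, strand setting and treatment of multi-mapping reads are not given in the sources used here. From these counts edgeR 4.0.16 in R 4.3.3 (TMM scaling, filterByExpr, 1 mean per group over all mice, quasi-likelihood F test, Benjamini-Hochberg over 16221 genes) tested each day against CTRL and day 42 against day 14 at an adjusted p of 0.05. In simulated data for day 14 against CTRL this recovered 182 of 200 changed genes (log2 fold change 1) with 13 false calls among 16097 genes. Depth was 9240291 to 14665247 counts, and intervals on pooled counts cover counting error only. Levels in every group are given for up to 5 of the most changed genes of each role, among those called with a mean log2 CPM above 0, and for *Axin2*, *Porcn*, *Lgr5*, *Wnt2*, *Wnt5a* and *Wnt3a*. Members and lists were chosen with earlier results of these data known. Alternatives were DESeq2 1.42.0, other scalings and filters, the compared groups alone, a replicate block and leaving out each mouse. Tables used pandas 2.3.3 and figures matplotlib 3.10.9.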

Additional observations from a re-analysis of the deposited data

Results flagged for a closer look

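Of 111 groups of 4 to 10 mice in which a mouse could be tested for lying apart, 15 held a mouse whose gap to its nearest neighbour was large for the range of its group, where chance gives about 1 in 20. Days 14, 21, 28 and 35, with 12 mice each, were not tested in this way and so could hold no flag. In CTRL these were mouse 3 at 3.55 CPM for *Lgr5* (highest), mouse 6 at 15.7 CPM for *Fzd3* (lowest) and mouse 10 at 317 CPM for *Fzd4* (highest). On day 7, mouse 1 was the highest for *Dkk2* at 3.88 CPM and for *Wnt5a* at 53.2 CPM, and mouse 3 for *Wnt3a* at 29.3 CPM and *Wnt4* at 31.3 CPM. Day 7 mouse 5 was the highest for *Fzd5* at 43.3 CPM and the lowest for *Dkk3* at 80.2 CPM and *Wnt6* at 0.352 CPM. On day 42, mouse 7 was the highest for *Dkk2* at 13.99 CPM, *Fzd1* at 112.5 CPM and *Wnt10a* at 1.64 CPM. Mouse 2 of that day was the highest for *Fzd7* at 66.8 CPM and mouse 3 for *Wnt4* at 25.3 CPM. Leaving out CTRL mouse 3 ended the call of *Lgr5* on days 7 and 14, and leaving out day 7 mouse 1 ended that of *Dkk2* on day 7.

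The 18 genes whose change against CTRL differed between day 14 and day 42 are listed because the difference itself passed edgeR's test. The antagonists *Sfrp1*, *Frzb* and *Sfrp2* had log2 fold changes of -2.28, -2.02 and -0.79 on day 42 against day 14. For the ligands *Wnt10a*, *Wnt6*, *Wnt5a* and *Wnt7b* the values were -2.47, -1.61, -0.81 and -0.62. *Wnt11*, *Wnt5b*, *Wnt7a* and *Wnt9a* had -0.57, -0.54, -0.52 and -0.49. The receptor *Fzd1* had -0.91 and *Rspo3* had -0.63, the latter lost under DESeq2 and both other scalings. Higher on day 42 were *Wnt10b* with 0.88, *Wif1* with 0.68, *Wnt3a* with 0.67, *Fzd6* with 0.47 and *Fzd7* with 0.43.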

How the results depend on the processing

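No log2 fold change of a Wnt gene changed sign past the threshold under any alternative run, among 259 values each for DESeq2, 2 other scalings, no filter and the replicate block and 5328 values that each left out 1 mouse. Adding a minimum log2 fold change of 0.5 lowered the number called to 12, 20, 13, 11 and 8 for days 7, 14, 28, 35 and 42. DESeq2 ended 5 calls and made 2 others, among them *Wnt10a* on day 42 (log2 fold change 2.33, adjusted p = 0.0111), and dropping the filter ended 18. Fitting the compared groups alone, over 237 values, ended 6 calls and made 10, among them *Fzd1* on days 35 and 42, and the replicate block also made that of *Fzd1* on day 35 (adjusted p = 0.0386). With 1 mouse left out, the number called ranged from 18 to 22 on day 7, 27 to 32 on day 14, 21 to 22 on day 21, 19 to 22 on day 28, 16 to 20 on day 35, 13 to 15 on day 42 and 17 to 19 between days 42 and 14. Among the 5328 values of these fits, a call was ended 167 times and made 52 times. The same call was counted again for each mouse whose removal ended or made it. Beside the calls named in the report, those of *Fzd3* (days 7 and 35), *Fzd6* and *Rspo1* (day 14), *Fzd8* (day 35), *Wnt3a* (day 7), *Wnt4* (day 14), *Porcn* (day 14), *Wnt9a* (days 7, 14 and 42), *Wnt11* (days 14 and 42) and *Rspo3* (day 42 against day 14) were each lost in more than 1 of the fits with 1 mouse left out. They thus lay near the threshold and did not rest on 1 particular mouse. Without day 28 mouse 10, a choice made after seeing the data, 36 of 37 day 28 results were unchanged in call and *Wnt2b* became significant. Mouse numbers come from the labels and did not pair the mice, since same-numbered mice had a median correlation of 0.0057 over 204 pairs and 7 of 75 mice were closest to their own number. With a replicate block the numbers called were 22, 32, 21, 23, 21 and 14 on days 7 to 42 and 20 between days 42 and 14. Low counts limit *Wnt10a*, *Frzb* and *Wnt6*, whose CTRL levels rest on a few reads per mouse.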
